A study of Macaca mulatta with 449 samples.

Results

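Adrenergic receptors carry the signal of noradrenaline and adrenaline into cells, and their mRNA was followed here across the brain of the rhesus macaque. The rule took the rows of a gene count table for 7 receptor symbols, of which 5 were found among 30807 genes. These were *ADRA1A* (ENSMMUG00000023112), *ADRA2A* (ENSMMUG00000041307), *ADRA2B* (ENSMMUG00000011842), *ADRA2C* (ENSMMUG00000014781) and *ADRB1* (ENSMMUG00000044756). *ADRA1B* and *ADRA1D* matched no row by symbol and were not analysed here. *ADRB3* (ENSMMUG00000005876), another receptor of the family, was found and is given beside the members.

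Noradrenaline in the brain comes mainly from small groups of neurons in the pons and medulla, above all the locus coeruleus, whose axons reach most of the brain and spinal cord. Alpha-1 receptors couple to Gq/11 proteins and phospholipase C, which raises intracellular calcium and activates protein kinase C. Alpha-2 receptors couple to Gi/o proteins, lower cyclic AMP and open potassium channels, and they act both as autoreceptors on noradrenergic neurons and as receptors on their targets. Beta receptors couple to Gs proteins and raise cyclic AMP. The receptor protein may sit on axons far from the cell body that holds its mRNA.

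The data were total RNA sequenced after ribosomal RNA depletion, from 51 sub-regions of the same 8 animals. The animals are numbered as in the labels. Animals 7 and 8 were young males (4 and 3.8 years), 4 and 10 young females (3.2 and 5 years), 2 and 3 mid-aged males (10 years each), and 6 and 11 mid-aged females (10 and 9.8 years), with no treatment or genetic change stated. Each sample was bulk dissected tissue from 1 animal, and a sub-region therefore had 1 sample per animal. Sub-regions were joined into 16 region groups by summing counts within each animal, which gave n = 8 animals in every group. The cortex group joined 31 cortical sub-regions. The striatum (STR) joined the accumbens nucleus (ACb), caudate nucleus (CN) and putamen (PUT). The hippocampus (HIP) joined CA1, CA3 and the dentate gyrus (DG), and the cerebellum (CB) its vermis (CBV) and cortex (CBC). The other groups were single sub-regions, namely olfactory bulb (OB), the entorhinal and perirhinal cortex sample (PA), corpus callosum (CC), thalamus (THA), hypothalamus (HTHA), medulla oblongata (MO), pons (PON), ventral tegmental area (VTA), substantia nigra (SN), amygdala (AMY), globus pallidus (GP) and pituitary (PIT).

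Sequencing gave 7784678 to 31083490 counts per sample, with a median of 10698602. Over all samples the receptors collected 59783 counts for *ADRA1A*, 21538 for *ADRA2A*, 1828 for *ADRA2B*, 22605 for *ADRA2C* and 13320 for *ADRB1*, so that *ADRA2B* was the least precisely measured. Markers fixed for the striatum and pituitary were highest in those tissues. The summed level of 5 medium spiny neuron markers was 2951 to 3930 CPM in the striatum and at most 607 CPM in any other group's library, and that of 5 anterior pituitary hormone and receptor genes was at least 37876 CPM in the pituitary. Other lists were less confined. The cortical excitatory neuron list had medians of 1091 CPM in cortex, 1848 in HIP, 1406 in AMY and 1252 in PA. The choroid plexus list summed to 188 to 2563 CPM in CC. A hypothalamus library (animal 6) stood apart, with 5 cortical excitatory neuron markers summing to 654 CPM against a group median of 16.4, and an MO library (animal 6) had 4 general neuron markers summing to less than in any pituitary library (342 CPM or more there), against a group median of 4871 CPM. Levels are counts scaled to library size (CPM) and are not corrected for gene length, so they are compared across regions for 1 gene and never between genes.

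All 5 receptors varied over the 16 region groups in edgeR's quasi-likelihood test with the animal as a block. The FDR was 2.62e-36 for *ADRA1A*, 2.76e-48 for *ADRA2A*, 3.26e-13 for *ADRA2B*, 2.12e-58 for *ADRA2C* and 9.19e-24 for *ADRB1*. Since 99.7% of all 16829 genes tested varied in this sense, the informative values are the groups in which each receptor was high or low. Each group was compared with the mean of the other 15 on the log2 scale, and a receptor was called higher or lower at FDR < 0.05 with an absolute log2 fold change (log2FC) above 1. Of the 80 receptor and group pairs, 20 were called higher and 15 lower. Without *ADRA2B*, which entered the tests through groups where it was high, 14 of 64 were higher and 13 lower. Over all genes 9.27% of such pairs were called higher and 7.94% lower. By group, the share of all genes called higher was 10.2% in OB, 9.50% in cortex, 9.89% in PA, 6.45% in THA, 6.61% in HTHA, 8.01% in MO, 7.18% in PON, 11.5% in CB, 5.79% in VTA, 9.34% in AMY, 8.82% in HIP, 8.64% in STR, 13.6% in CC, 5.78% in SN and 17.8% in PIT. The share called lower was 5.59% in OB, 8.23% in cortex, 18% in CC, 5.54% in THA, 2.75% in MO, 8.25% in PON, 17.5% in CB, 6.06% in HIP, 5.33% in STR, 9.30% in GP, 5.03% in PA, 4.83% in SN, 6.27% in AMY and 20.4% in PIT. In bulk tissue, fewer cells that express a receptor and less receptor RNA per cell cannot be told apart, and this holds for every difference given here.

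**Figure D1:**
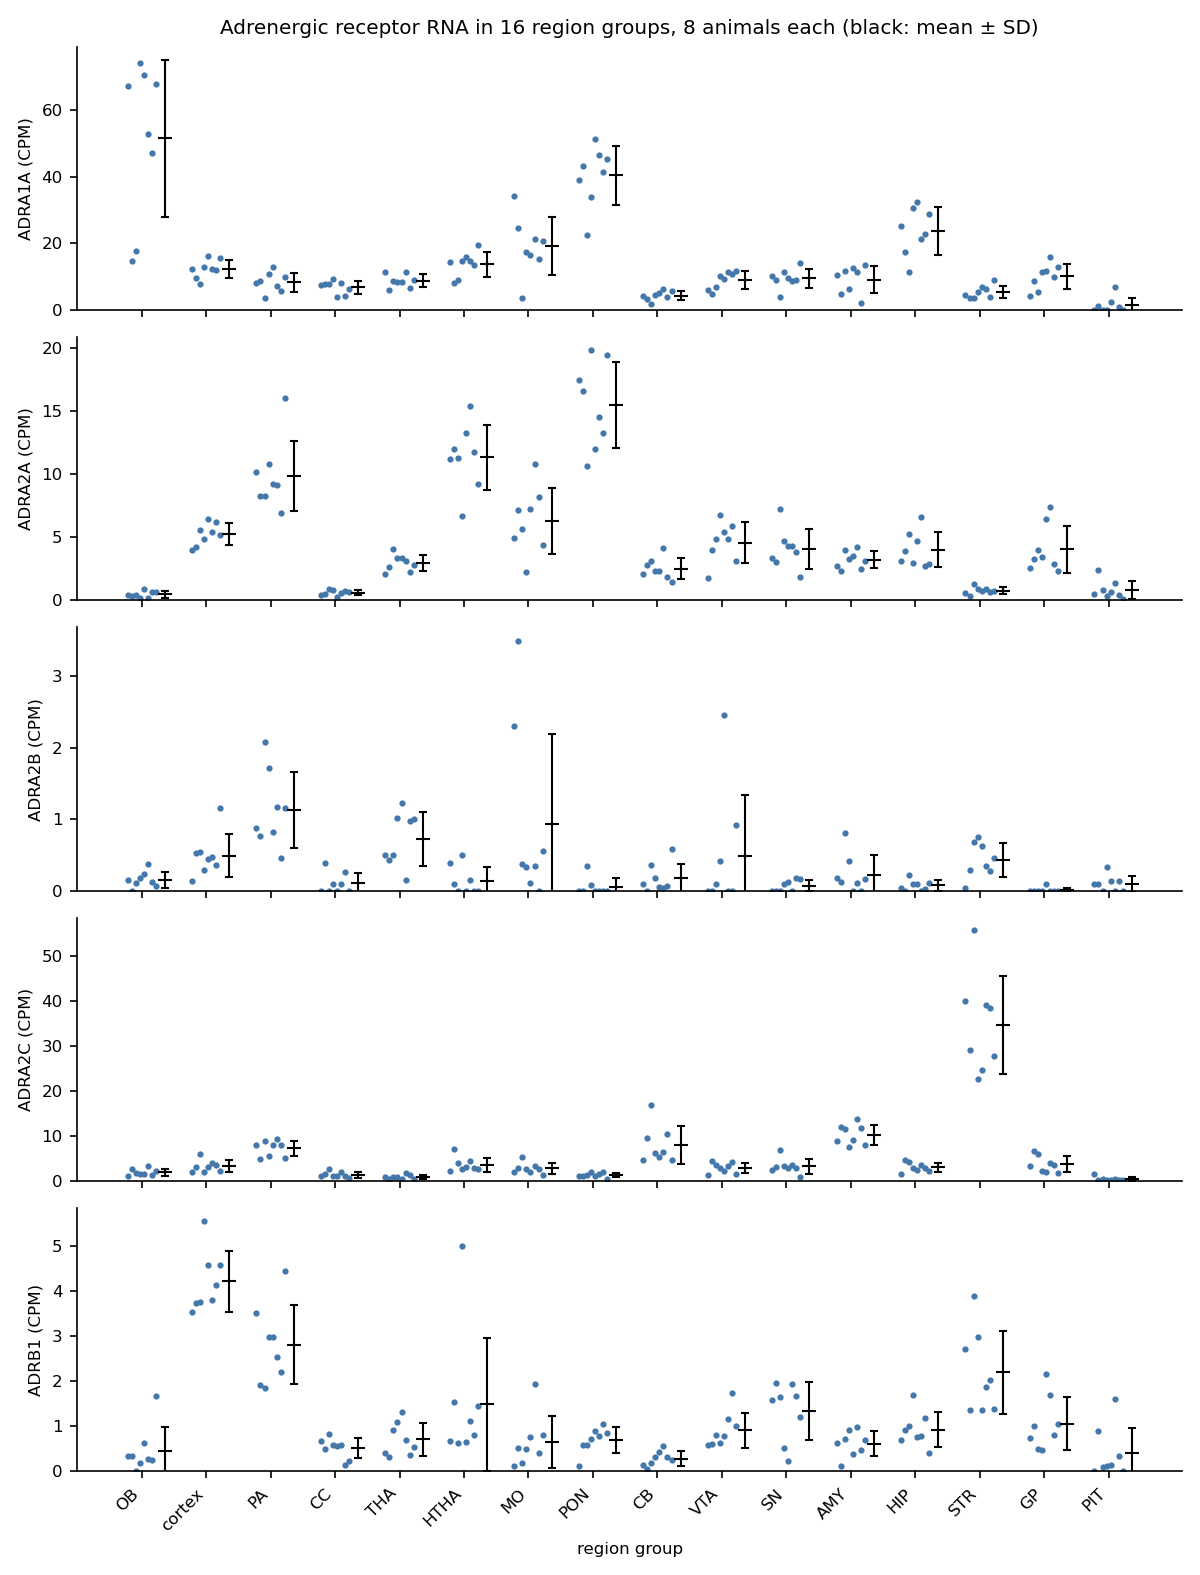
Level (CPM) of each receptor in the 16 region groups, with 1 point per animal (n = 8) and black bars for the mean and SD. *ADRA1A* was highest in OB (mean 51.4 CPM) and PON (40.4), *ADRA2A* in PON (15.5), *ADRA2C* in STR (34.7), where all 8 points lie above every other library, and *ADRB1* in cortex (4.21).

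*ADRA1A*, the alpha-1A receptor, was highest in the olfactory bulb and pons. In OB it ranged from 14.7 CPM to 73.9, with a median of 59.9 (mean 51.4 ± 23.6 SD). Animals 3 and 4 had 14.7 and 17.6 CPM there, and the other 6 had 46.9 or more. In PON it ranged from 22.6 CPM to 51.3, with a median of 42.2. The 2 groups overlapped, and their difference did not pass the test (log2FC 0.28 ± 0.26 SE, FDR = 0.337). OB was the highest group in 6 animals and PON in 2. Against the other 15 groups the log2FC was 2.38 ± 0.15 in OB (FDR = 6.29e-28) and 2.08 ± 0.16 in PON (FDR = 1.17e-22). The hippocampus followed at 11.3, 24 and 32.3 CPM (lowest, median, highest), a log2FC of 1.23 ± 0.17 (FDR = 2.34e-10), and lay below PON (FDR = 0.00511). In MO *ADRA1A* ranged from 3.52 CPM in animal 4 to 34.2. Its log2FC of 0.91 ± 0.18 there (FDR = 1.11e-05) passed the FDR limit but fell short of the fold threshold.

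*ADRA1A* was low in 3 groups. The cerebellum had 1.85, 4.38 and 6.36 CPM (lowest, median, highest), the striatum 3.54, 5.09 and 9.05, and the pituitary 0, 0.562 and 6.87. All 3 overlapped with other groups, and in the pituitary only animal 8 exceeded 2.34 CPM. The log2FC was −1.38 ± 0.22 in CB (FDR = 2.95e-08), −1.04 ± 0.21 in STR (FDR = 1.39e-05) and −3.01 ± 0.28 in PIT (FDR = 4.51e-18). The STR value lay at the fold threshold, and its call was kept in 9 of 16 alternatives, with values of −1.12 to −0.96. It was lost when animal 8 (−0.96) or animal 2 (−0.99) was left out, with the study's detection rule (−0.99) and with no filter (−0.98). With DESeq2, and without the AMY library of animal 4 or the MO libraries of animals 2 and 3, it fell just short of the threshold as well.

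*ADRA2A*, the alpha-2A receptor and the main alpha-2 autoreceptor, was highest in the pons and hypothalamus. It ranged from 10.7 CPM to 19.9 in PON (median 15.6) and from 6.70 CPM to 15.4 in HTHA (median 11.5). The ranges overlapped, PON was the highest group in 5 animals and HTHA in 3, and the difference passed the test with a log2FC of 0.50 (FDR = 0.0363). PA had 6.93, 9.22 and 16.1 CPM (lowest, median, highest), and MO 2.28, 6.40 and 10.8. Against the other 15 groups the log2FC was 2.51 ± 0.13 in PON (FDR = 2.12e-35), 1.98 ± 0.13 in HTHA (FDR = 1.54e-25), 1.81 ± 0.14 in PA (FDR = 1.36e-22) and 1.06 ± 0.15 in MO (FDR = 1.79e-09). The MO value was 0.95 without animal 8 and 0.98 without animal 10, below the fold threshold. Without the HTHA library of animal 6 the HTHA value was 2.06, and without animal 6, whose neuron-poor MO library had the lowest MO level (2.28 CPM), the MO value was 1.18.

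There was little *ADRA2A* in 4 groups. In OB, where *ADRA1A* was highest, it ranged from 0.172 CPM to 0.927 (median 0.432), in CC from 0.284 to 0.917 (median 0.632), in STR from 0.358 to 1.29 (median 0.745) and in PIT from 0.107 to 2.38 (median 0.574). These 4 groups overlapped with one another. The log2FC was −2.77 ± 0.24 in OB (FDR = 4.55e-19), −2.47 ± 0.24 in CC (FDR = 5.71e-17), −2.15 ± 0.20 in STR (FDR = 9.07e-18) and −2.08 ± 0.23 in PIT (FDR = 1.14e-14). From PON to OB the mean level fell 32-fold.

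*ADRA2C*, the alpha-2C receptor, which also couples to Gi/o, had its peak in the striatum. It ranged from 22.6 CPM to 55.8 there, with a median of 33.8 (mean 34.7 ± 10.9 SD). The striatum was the highest group in all 8 animals, and each of its 8 libraries lay above every library of the other 15 groups, the only one of the 35 called pairs without overlap. The log2FC was 3.70 ± 0.10 (FDR = 2e-60), and the amygdala, next in order, lay 1.75 ± 0.20 below (FDR = 3.51e-13). The same striatal libraries carried the medium spiny neuron markers noted above, and the part of cell composition in the *ADRA2C* level was not tested.

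The amygdala had 7.56, 10.3 and 13.7 CPM of *ADRA2C* (lowest, median, highest), CB 4.59, 6.25 and 17, and PA 5.00, 7.95 and 9.30. All 3 overlapped, and AMY passed the test against CB (FDR = 0.0399). Against the other 15 groups the log2FC was 1.84 ± 0.13 in AMY (FDR = 1.22e-24), 1.37 ± 0.13 in CB (FDR = 9.53e-18) and 1.32 ± 0.14 in PA (FDR = 7.01e-15). The mean of the other groups includes the striatum, and 6 of 8 animals in CB and 7 of 8 in PA lay above it in CPM. At the low end, THA had 0.409, 0.819 and 1.78 CPM (lowest, median, highest), PON 0.513, 1.23 and 2.10, CC 0.690, 1.15 and 2.65, and PIT 0.200, 0.260 and 1.63. These groups overlapped. The log2FC was −1.90 ± 0.21 in THA (FDR = 7.26e-14), −1.29 ± 0.20 in PON (FDR = 1.43e-08), −1.27 ± 0.20 in CC (FDR = 5.49e-09) and −3.00 ± 0.25 in PIT (FDR = 1.72e-21). PON was thus high for *ADRA2A* and low for *ADRA2C*, and STR the reverse.

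*ADRA2B*, the alpha-2B receptor, was sparse. Only 14 of its group libraries exceeded the 0.844 CPM at which the filter on low counts acts, 5 of them in PA, 4 in THA, 2 in MO, 2 in VTA and 1 in cortex, so it entered the tests through groups where it was high. PA had 0.457, 1.02 and 2.08 CPM (lowest, median, highest) and THA 0.155, 0.738 and 1.23. Both overlapped with cortex, at 0.133, 0.460 and 1.16. The log2FC was 2.71 ± 0.40 in PA (FDR = 2.47e-09), 2.07 ± 0.43 in THA (FDR = 1.7e-05), 1.44 ± 0.31 in cortex (FDR = 2.02e-05) and 1.24 ± 0.38 in STR (FDR = 0.00364).

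The *ADRA2B* calls in MO and VTA rested on 1 or 2 libraries. In MO animals 2 and 3 had 2.30 and 3.49 CPM and the other 6 at most 0.558, and the log2FC of 2.51 ± 0.42 (FDR = 2.39e-07) was 0.55 without those 2 libraries (FDR = 0.423), an alternative chosen after seeing the data. In VTA animal 7 had 2.46 CPM from 25 counts, and the log2FC of 1.35 ± 0.50 (FDR = 0.0178) was 0.24 without that animal (FDR = 0.655) and lost its call without animal 11 (FDR = 0.0846) and with DESeq2 on all animals (log2FC 1.16, FDR = 0.0596) as well. HIP was called lower with a log2FC of −1.43 ± 0.60 (FDR = 0.0326), a call lost when animal 3, 6, 7, 8 or 10 was left out. GP was called lower, but its 8 libraries held 1 count in all and its fitted fold is no bound. The mean of the other groups, 0.353 CPM, was at least 1.34-fold higher than GP at a floor of 3 counts per library. The *ADRA2B* libraries of PON, SN and PIT also had at most 3 counts each, and no neighbouring groups in the order of its levels could be told apart.

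*ADRB1*, the beta-1 receptor, was highest in the cortex. It ranged from 3.52 CPM to 5.55 in cortex (median 3.96), from 1.85 to 4.45 in PA (median 2.76) and from 1.36 to 3.89 in STR (median 1.94). The 3 groups overlapped, and cortex was the highest group in 7 animals and STR in 1. Cortex lay above PA in 8 of 8 animals, but their difference did not pass the test (log2FC 0.58 ± 0.32, FDR = 0.153). The log2FC was 2.36 ± 0.18 in cortex (FDR = 1.76e-22), 1.74 ± 0.24 in PA (FDR = 3.01e-10) and 1.37 ± 0.22 in STR (FDR = 4.45e-08). The cerebellum was low at 0.0386, 0.282 and 0.570 CPM (lowest, median, highest), with a log2FC of −1.85 ± 0.34 (FDR = 6.25e-07), and the pituitary had 0, 0.122 and 1.61 CPM, with a log2FC of −1.25 ± 0.37 (FDR = 0.00123). In HTHA *ADRB1* was 5.00 CPM in animal 6 and 0.630 to 1.53 in the others. That library is the one with cortical excitatory markers (*SLC17A7* at 479 CPM against 0.965 to 5.17 in the other 7), and the part of this in its *ADRB1* level was not tested.

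*ADRB3*, the beta-3 receptor, had 332 counts in all and did not pass the filter. Its highest mean was 0.40 CPM in PON, and it was at 0 in all 8 libraries of OB, THA, AMY and STR, which at 3 counts per library allows up to 0.275, 0.251, 0.286 and 0.0990 CPM.

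**Figure D2:**
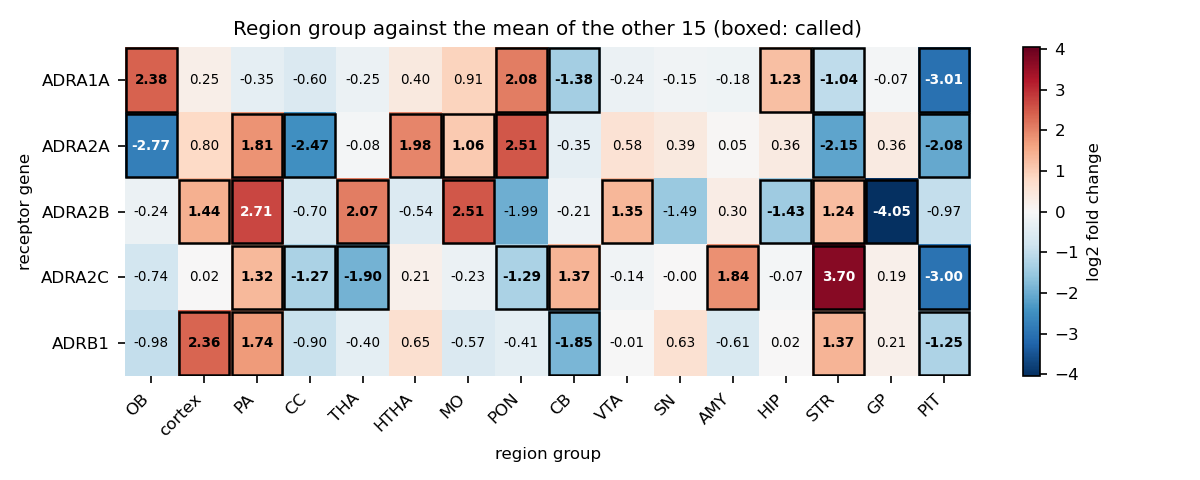
The log2FC of each receptor in each region group against the mean of the other 15 groups, from the edgeR fit, as a number and a colour, with called pairs boxed. The value of *ADRA2B* in GP rests on 1 count. The largest called increase was *ADRA2C* in STR (3.70), and the pituitary held called decreases of *ADRA1A* (−3.01), *ADRA2A* (−2.08), *ADRA2C* (−3.00) and *ADRB1* (−1.25).

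Read by region, PA held 3 receptors called higher besides *ADRA2B*, namely *ADRA2A*, *ADRA2C* and *ADRB1*. The background there was 9.89% of all genes. STR held 2 called higher besides *ADRA2B* (*ADRA2C* and *ADRB1*, background 8.64%) and 2 called lower (*ADRA1A* and *ADRA2A*, background 5.33%). PIT held 4 called lower, where 20.4% of all genes were called lower. Most neighbours in the order of levels were not separated. Of the 75 pairs of neighbouring groups over the 5 receptors, 9 differed at FDR < 0.05, 4 for *ADRA2C*, 3 for *ADRA2A* and 2 for *ADRA1A*. Over all genes 60.8% of the same group pairs differed, but the pairs here were set by closeness in the receptor's own level.

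Within the striatum *ADRA2C* was lower in ACb than in CN and PUT, and *ADRB1* was lower in PUT than in CN and ACb. *ADRA2C* had 14.1, 19.1 and 43.6 CPM (lowest, median, highest) in ACb, 27.1, 44.5 and 58.0 in CN, and 25.3, 40.4 and 63.2 in PUT. The sub-regions overlapped across animals, but within each of the 8 animals ACb lay below both CN and PUT. The log2FC was −0.99 ± 0.10 against CN (FDR = 1.37e-06, background 34.5%) and −0.88 ± 0.10 against PUT (FDR = 5.7e-07, background 45.4%). *ADRB1* was instead low in PUT, at 0.487, 1.10 and 2.23 CPM (lowest, median, highest), against 1.29, 2.53 and 4.45 in CN and 1.41, 1.96 and 5.05 in ACb. It was above PUT in 8 of 8 animals in both, by a log2FC of 1.12 ± 0.20 in CN (FDR = 0.000310, background 30.4%) and 0.91 ± 0.21 in ACb (FDR = 0.00116). Between ACb and CN its difference did not pass (log2FC −0.21 ± 0.19, FDR = 0.405). *ADRA1A* ranged from 4.80 CPM in PUT to 5.71 in ACb on average, and its test over the 3 sub-regions had an FDR of 0.191. Over the 3 sub-regions 57.0% of all genes varied, as did 2 of the 3 receptors tested. None of the 3 met the study's criterion of a fold above 2 against each of the others, with edgeR or with DESeq2, where ACb was higher by it for 1.44% of all genes and lower for 1.05%.

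*ADRA2B* did not pass the striatal filter, yet ACb held most of its striatal counts. It had 0, 1.02 and 2.11 CPM (lowest, median, highest) in ACb, where its highest library held 20 counts. In CN it was at most 0.431 CPM and in PUT at most 3 counts per library. ACb was at least 3.41-fold higher than the PUT floor. With no filter on low counts *ADRA2B* was higher in ACb than in CN by a log2FC of 3.01 (FDR = 0.000113) and met the fold criterion, as it did under the study's detection rule (log2FC 3.02, FDR = 0.000142).

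Within the hippocampus the dentate gyrus stood out for *ADRA2C* and *ADRA1A* in opposite directions. *ADRA2C* had 0.802, 1.29 and 2.15 CPM (lowest, median, highest) in DG, 2.27, 3.27 and 5.33 in CA3, and 0.735, 3.64 and 8.08 in CA1. DG lay below CA3 in every library and overlapped with CA1. The log2FC was −1.50 ± 0.28 against CA1 (FDR = 0.000654) and −1.51 ± 0.28 against CA3 (FDR = 0.000663). It was the 1 receptor of 4 tested that met the fold criterion, where 1.68% of all genes were lower in DG by that criterion. *ADRA1A* had 15.6, 31.9 and 54.9 CPM in DG, 4.69, 19 and 23.7 in CA1, and 9.59, 16.4 and 25.7 in CA3, and DG was above CA1 in 8 of 8 animals and above CA3 in 7. The log2FC was 1.07 ± 0.22 (FDR = 0.00134, background 31.5%) and 0.96 ± 0.22 (FDR = 0.00302, background 32.5%), the second short of a 2-fold difference. Without the animal as a block, 2 receptors met the criterion in place of 1, as they did without animal 2, 3 or 4, and without animal 8 there were 3.

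*ADRB1* averaged 0.466 CPM in DG, 1.32 in CA1 and 1.000 in CA3. Its test over the 3 sub-regions did not pass (FDR = 0.0648), while in the test of that pair DG was below CA1 by a log2FC of −1.48 ± 0.49 (FDR = 0.0276), a call lost without animal 3, 7 or 10. *ADRA2A* averaged 4.10 CPM in DG, 3.75 in CA1 and 4.10 in CA3, and its test over the 3 sub-regions had an FDR of 0.999. The omnibus test called 32.7% of all genes. Between the cerebellar cortex and vermis, where 0.842% of all genes differed, the FDR was 0.441 for *ADRA2C*, 0.587 for *ADRA1A* and 0.803 for *ADRA2A*.

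**Figure D3:**
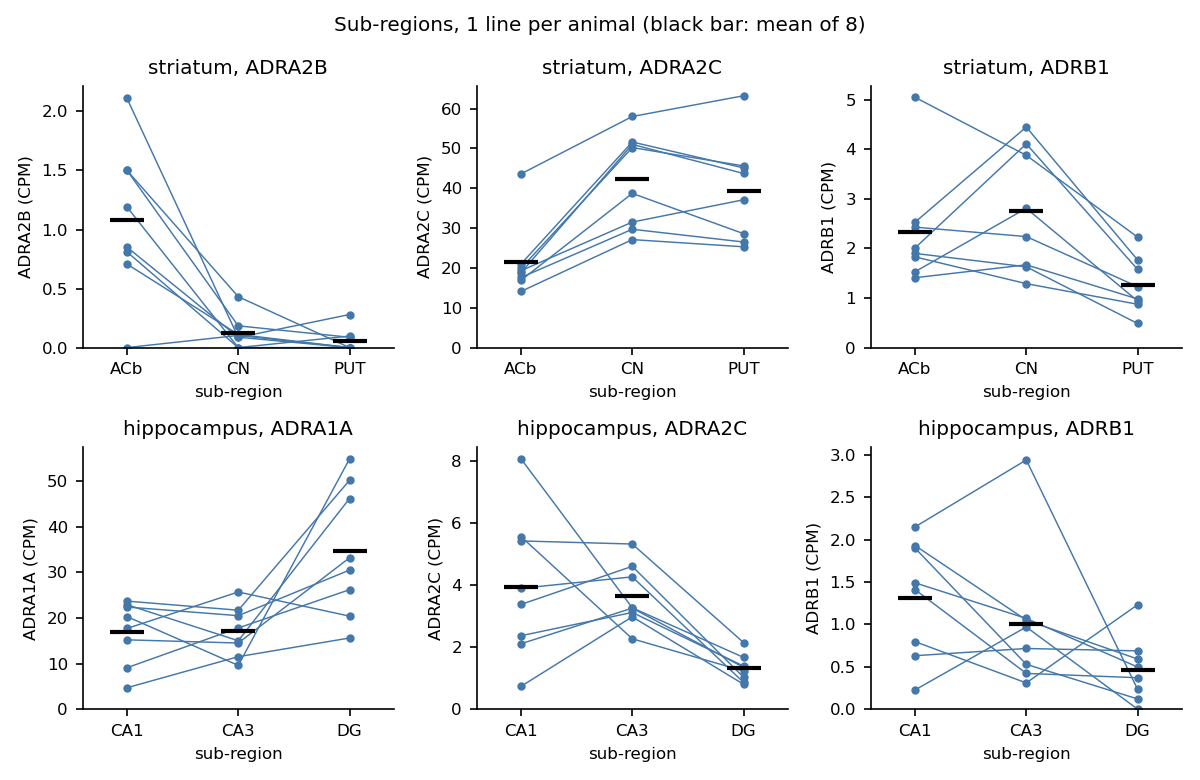
Level (CPM) of *ADRA2B*, *ADRA2C* and *ADRB1* in the sub-regions of the striatum and of *ADRA1A*, *ADRA2C* and *ADRB1* in those of the hippocampus, with 1 line per animal (n = 8) and a black bar at the mean. *ADRA2C* was lower in ACb than in CN and PUT in all 8 animals, and in DG it lay at 0.802 to 2.15 CPM, below all CA3 samples.

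Across the 31 cortical sub-regions 4 of 5 receptors varied (FDR = 3.3e-13 for *ADRA1A*, 4.25e-09 for *ADRA2A*, 0.00933 for *ADRA2B*, 1.47e-42 for *ADRA2C* and 0.104 for *ADRB1*), as did 75.0% of all genes. Leaving out 1 animal gave 3 to 5 receptors. *ADRA2C* had the widest range of means among the receptors other than *ADRB3*, 6.73-fold, from 6.58 CPM in the temporal polar gyrus to 0.977 in the posterior superior occipital gyrus. The posterior superior, inferior and anterior superior occipital gyri held its 3 lowest means (0.977, 1.02 and 1.12 CPM), followed by the cuneus gyrus (1.61 CPM). *ADRA1A* ranged 2.38-fold, from 19.4 CPM in the superior precentral gyrus to 8.16 in the lingual gyrus, and *ADRA2A* 1.90-fold, from 6.88 CPM in the inferior frontal gyrus to 3.61 in the intraparietal sulcus. *ADRB1* had the narrowest range of the 5, 1.71-fold, from 5.61 CPM in the inferior frontal gyrus to 3.29 in the superior precentral gyrus.

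**Figure D4:**
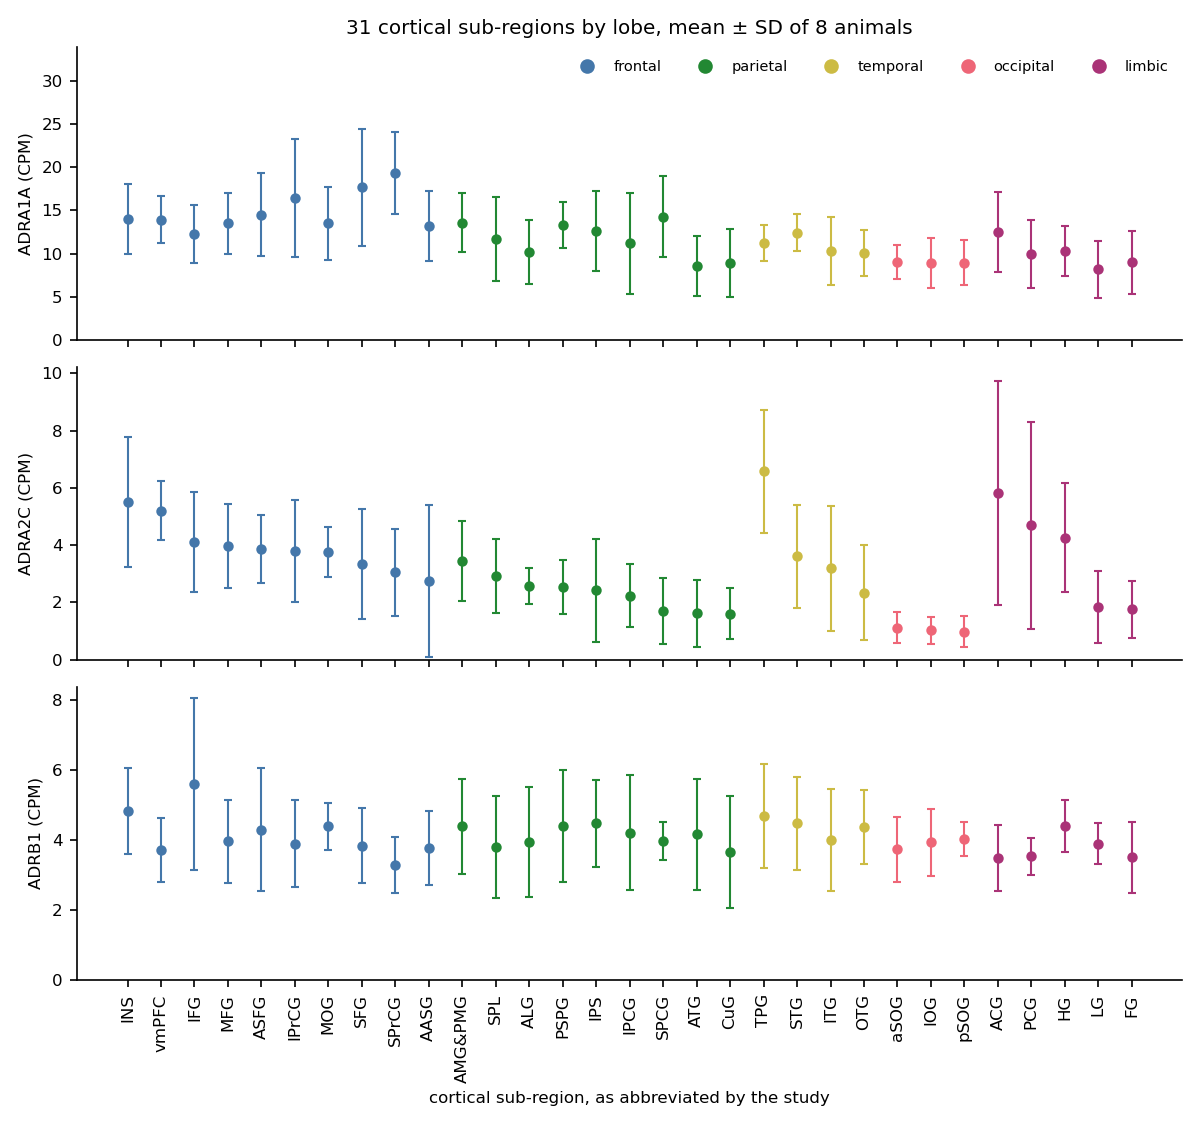
Mean level (CPM) of *ADRA1A*, *ADRA2C* and *ADRB1* in the 31 cortical sub-regions, coloured by lobe, with bars for the SD over 8 animals. *ADRA2C* fell to about 1 CPM in the occipital gyri (0.977 to 1.12 CPM) from 6.58 in the temporal polar gyrus, while *ADRB1* stayed between 3.29 and 5.61.

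With counts summed by lobe, each lobe was compared with the mean of the other 4, and 8 of 25 receptor and lobe pairs were called at FDR < 0.05, where 30.3% of all gene and lobe pairs were called. *ADRA2C* in the occipital lobe had 0.412, 1.08 and 1.84 CPM (lowest, median, highest), with a mean of 1.02 against 3.44 in the other lobes. All 8 animals lay below their own mean of the other lobes. The log2FC of −1.72 ± 0.12 (FDR = 2.33e-14) was the 1 receptor pair past a log2FC of 1, where 4.00% of all genes were lower in the occipital lobe by that measure. *ADRA2C* was higher in the frontal lobe (log2FC 0.79 ± 0.08, FDR = 1.76e-09, 8 of 8 animals, background 23%), the temporal lobe (0.68 ± 0.09, FDR = 5.79e-07, 8 of 8, background 13.7%) and the limbic lobe (0.46 ± 0.09, FDR = 0.000361, 6 of 8, background 8.51%). *ADRA1A* had 8.85, 14.5 and 19.5 CPM in the frontal lobe and 6.74, 8.29 and 12.5 in the occipital lobe. These lobes overlapped, and the log2FC was 0.52 ± 0.08 (FDR = 1.93e-06) and −0.34 ± 0.09 (FDR = 0.00175, background 26.4%). *ADRA2A* was higher in the frontal lobe (0.28 ± 0.06, FDR = 0.000383) and lower in the parietal lobe (−0.21 ± 0.07, FDR = 0.0395, background 4.96%), the latter lost when animal 2, 3, 4, 6, 8, 10 or 11 was left out. Without the animal as a block, 3 of the 25 pairs were called, *ADRA2C* in the frontal and occipital lobes and *ADRA1A* in the frontal lobe.

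The receptors were compared between mid-aged and young and between female and male animals within each group, 4 animals against 4, in 55 receptor and group pairs each. Neither comparison gave a call at FDR < 0.1 and an absolute log2FC above 1, with edgeR or DESeq2, where 0.0164% of all gene and group pairs were called for age stage and 0.105% for sex. At an unadjusted p < 0.05 there were 7 pairs for age (background 5.73%) and 1 for sex (background 3.54%). The 16 groups came from the same 8 animals, so their directions are not independent.

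The log2FC of *ADRA2C* between mid-aged and young animals was below 0 in all 15 groups tested, from −0.83 to −0.01, none past the threshold. PIT, where it was too low, was not among them. In cortex the mid-aged animals 2, 3, 6 and 11 had 1.94, 3.05, 2.08 and 2.26 CPM, and the young animals 4, 7, 8 and 10 had 6.02, 3.20, 4.01 and 3.45 CPM. The groups did not overlap, and the log2FC of −0.83 ± 0.25 in edgeR had an FDR of 0.734. *ADRA2A* in cortex was 3.97, 4.24, 4.89 and 5.21 CPM in the same mid-aged animals and 5.56, 6.44, 5.47 and 6.23 in the young ones, also without overlap (log2FC −0.38 ± 0.14 in edgeR, FDR = 0.863). In PON its direction was the opposite, 17.5, 16.6, 19.9 and 19.5 CPM in mid-aged and 10.7, 12, 14.6 and 13.3 in young animals (log2FC 0.54 ± 0.17 in edgeR, FDR = 1.000). These 3 were the pairs of 55 without overlap for age, and no pair for sex lacked overlap. Over all gene and group pairs tested, 3.87% lacked overlap for age and 2.00% for sex.

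**Figure D5:**
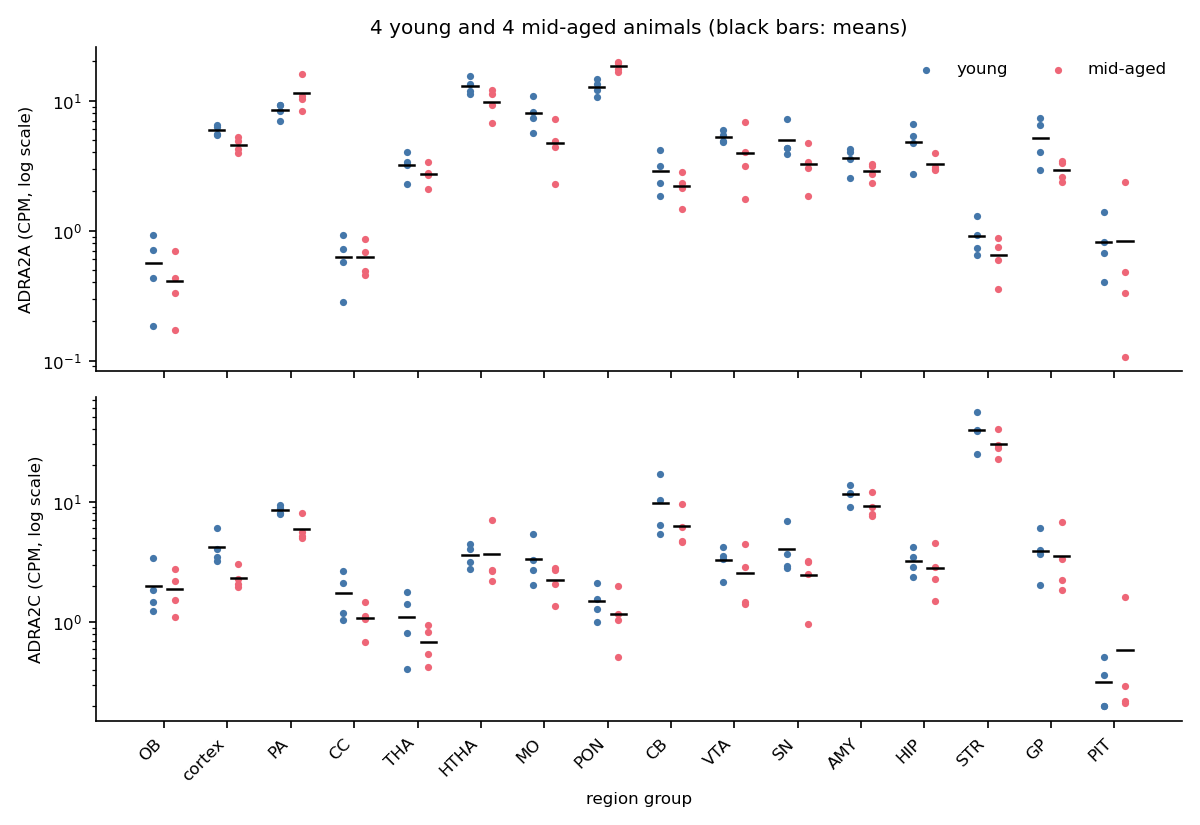
Level (CPM, log scale) of *ADRA2A* and *ADRA2C* by region group and age stage, with 1 point per animal (4 mid-aged, 4 young) and a bar at the mean. *ADRA2C* in cortex averaged 2.33 CPM in mid-aged and 4.17 in young animals without overlap, and *ADRA2A* in PON averaged 18.4 and 12.6, and neither passed FDR < 0.1.

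The genes that make, store and clear noradrenaline were read from a list. Of 9 such genes 7 were in the table and tested. In MO 5 were called higher (*DBH*, *SLC6A2*, *DDC*, *SLC18A2* and *TH*, background 8.01%) and in PON 4 were called lower (background 8.25%). HTHA also had 5 called higher (*TH*, *DDC*, *SLC18A2*, *DBH* and *MAOB*) and OB 4 (*SLC6A2*, *TH*, *DDC* and *DBH*). In SN the 3 called higher were *TH*, *DDC* and *SLC18A2*, and the 4 in VTA were these and *SLC6A2*. *DBH*, the enzyme that makes noradrenaline from dopamine, was not called in SN (mean 0.215 CPM) or VTA (0.445). It had 0.408, 6.27 and 15.3 CPM in MO (lowest, median, highest), a log2FC of 4.93 ± 0.25. The noradrenaline transporter *SLC6A2* had 0.0926, 2.05 and 4.86 CPM in MO (lowest, median, highest), with a mean of 2.25 (log2FC 4.69 ± 0.32). There 5 of 8 animals lay above their own mean of the other 15 groups in CPM. In OB it averaged 8.02 CPM, at 3.40, 8.21 and 10.7 CPM (lowest, median, highest). In PON, where *ADRA1A* and *ADRA2A* were high, *DBH* averaged 0.0375 CPM, and the summed level of *DBH*, *SLC6A2* and *TH* was 0 to 0.390 CPM, against 0.652 to 32.9 in MO. The pons libraries thus held almost no noradrenergic marker mRNA, while their 4 general neuron markers summed to 7363 to 15717 CPM. *TH*, tyrosine hydroxylase, had at most 3 counts per library in CB. In PA 3 supply genes were called higher and 1 lower, in cortex 1 higher and 3 lower, in HIP 1 higher and 2 lower, and in PIT 2 each way. *DBH* was among those called higher in each of these groups, and averaged 0.588 CPM in PA, 1.10 in cortex, 0.590 in HIP and 1.43 in PIT. CB and CC had 5 called lower each, THA and GP 4 each, STR 3 and AMY 2, with none higher.

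The coupling partners were read from lists for each G protein pathway. Of 8 Gq/11 genes tested, 4 were called higher in cortex (background 9.50%), 4 in CB (11.5%) and 4 in STR. In THA (6.45%), PA, AMY and HIP 2 were called higher each, and in OB 1. CB, STR, PA, AMY, HIP and OB also had 1 called lower each. MO had 3 called lower (2.75%), CC 4, PIT 3 and GP 1, with none higher. VTA had 2 called lower and none higher. The share of all genes called lower in VTA is not reported here, and over all 16 groups it was 7.94%. In PON, high in *ADRA1A*, 2 were higher and 2 lower. *ITPR1*, an IP3 receptor that releases calcium, averaged 1726 CPM in CB (log2FC 3.78 ± 0.14). The list's median log2FC was −0.49 in PON, 1.08 in cortex and 1.12 in CB, beside medians over all genes of −0.06 to 0.04 in any group.

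Of 6 Gi/o genes tested, 1 was called higher and 2 lower in STR, where *ADRA2C* peaked. The 2 were the potassium channel subunits *KCNJ6*, at 0.118, 0.232 and 0.617 CPM (lowest, median, highest; log2FC −2.82 ± 0.31), and *KCNJ3*, at 3.73, 5.66 and 7.74 (−2.42 ± 0.27). *KCNJ3* was higher in CB (log2FC 2.39 ± 0.17). In CB, OB and HIP 2 Gi/o genes were called higher each, and in cortex, PA, THA, PON and AMY 1 each, with none lower. SN had 1 called higher and 1 lower, CC 1 and 3, PIT 1 and 2, and GP 2 lower. The list's median log2FC was −0.84 in STR. Of 10 Gs genes, 4 were called higher and 2 lower in STR, 3 higher in cortex, 2 higher and 2 lower in CB, 1 higher and 1 lower in PON and 1 higher in THA, with a median log2FC of 0.53 in STR and 0.43 in cortex. CC had 7 called lower and none higher (background 18%), with a median log2FC of −1.38. PIT had 1 called higher and 3 lower, OB 2 and 1, and PA 2 and HIP 1 higher with none lower. The adenylate cyclase *ADCY5* averaged 1015 CPM ± 129 (SD) in STR, a log2FC of 3.08 ± 0.05, *ADCY2* averaged 9.12 CPM in PON (−2.72 ± 0.19), and *ADCY1* averaged 291 CPM in CB (2.19 ± 0.17). Of 8 genes that end receptor signalling, 1 was called higher in cortex, 1 higher and 2 lower in CB, 2 higher and 1 lower in STR, and 1 higher and 1 lower in THA. PIT had 1 called higher and 3 lower, and HIP 1 and 1. In PA and AMY 2 were higher each and in OB 1, with none lower. CC had 3 called lower, and SN and GP 1 each, with none higher. *RGS4*, a regulator that speeds the turn-off of Gi/o and Gq proteins, averaged 724 CPM in cortex (log2FC 3.69 ± 0.19) and 4.23 in CB (−4.20 ± 0.41), and *RGS2* averaged 24.4 CPM in CB (−1.63 ± 0.14).

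For each receptor the genes with the most similar pattern were ranked by Pearson correlation of mean log2(CPM + 1) over the 51 sub-regions, which share animals and libraries, so that r is a description. They were *ITGA7* (r = 0.767), *MYH15* (0.717) and *SAMHD1* (0.710) for *ADRA1A*, *PNMA3* (0.824), *LIMK1* (0.813) and *KCNC4* (0.807) for *ADRA2A*, and *CRH* (0.643), *TRIM55* (0.639) and *TCERG1L* (0.628) for *ADRA2B*. For *ADRA2C* they were *PRKCD* (0.876), *DDX54* (0.853) and *PEAK1* (0.851), and for *ADRB1* they were *TMEM132D* (0.952), *COL26A1* (0.935) and *TESPA1* (0.930). *PRKCD* stayed first for *ADRA2C* by Spearman correlation (0.868) and over the 16 region groups (0.904). By Spearman correlation 2 of the 3 genes stayed among the first 3 for *ADRA2B*, *ADRA2C* and *ADRB1*, and 1 for *ADRA1A*. Over the 16 region groups 1 of the 3 stayed for each of these 4 receptors. None of the 3 genes for *ADRA2A* stayed among its first 3 under either alternative.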

How the data were processed

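Ribo-zero RNA-seq of 51 sub-regions from 8 animals was used; 33 ATAC-seq samples and 8 midbrain samples were not analysed here. According to the methods, the authors used Trim Galore 0.4.4 for trimming, HISAT2 2.0.5 for alignment to the rhesus genome and HTSeq 0.6.1 for counting on Ensembl genes. They deposited raw counts, 1 whole number per gene and sample. How reads were assigned by strand or between overlapping genes is not given in the sources used here, so genes that overlap or have near-identical copies are uncertain. Symbols came from a reference table for 17572 genes and from the study's supplement for 583. No sequence table or genome was used.

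Counts were summed within animal and region group or lobe and tested with edgeR 4.0.16 in R 4.3.3 (with limma 3.58.1). Libraries were scaled by TMM, genes filtered by filterByExpr, and p-values of the quasi-likelihood test adjusted by Benjamini-Hochberg over the whole table (FDR). The animal was a block for regions, and age stage and sex were covariates of each other. The block follows the labels, since same-numbered samples came from the same animal (median correlation of deviations 0.43 over 960 pairs, −0.06 over 6720 pairs of different animals). SE is the absolute log2FC divided by the square root of F. CPM use TMM-scaled library sizes. The log2FC compares mean log2 levels and can differ from a ratio of mean CPM. Animals are separate individuals, so spread is biological and technical together. Genes named beside the receptors were the 3 most correlated genes of each (of those with a mean of at least 1 CPM) and, per pathway list, the called genes with the 3 largest absolute log2FC in 6 groups, and some of these are not reported here. Members and lists were chosen with earlier results of these data known.

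The tests were also run on simulated counts with 4-fold changes, placed in genes above a low level, and with no animal effect. That setting does not cover smaller changes or levels as low as those of *ADRA2B*. Alternatives were DESeq2 1.42.0, its size factors in edgeR, no filter, the study's detection rule (a count above 1 in at least 3 samples), no block or covariate, a fold above 4, each animal left out, single libraries left out, and other correlation measures. Tables and figures used Python 3.11.15, numpy 2.4.6, pandas 2.3.3 and matplotlib 3.10.9.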

Additional observations from a re-analysis of the deposited data

Results flagged for a closer look

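In 27 of 120 groups of 8 libraries, 1 animal's level of a receptor lay farther from the other 7 than Dixon's 95% limit (0.526 of the group's range). Chance alone would give about 1 in 20 for independent groups of normally distributed values. These groups share animals, and a region group shares samples with its own sub-regions. The levels were untransformed CPM, and all 27 flagged values were the highest of their group, so 1 in 20 is no baseline here. Of the 27, 10 were *ADRA2B*, whose levels rest on few counts. No explanation of these values was tested.

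For *ADRA1A* the pituitary of animal 8 had 6.87 CPM (others 0 to 2.34), and the caudate of animal 11 had 10.9 CPM (others 3.65 to 6.41). For *ADRA2A* the entorhinal and perirhinal cortex of animal 11 had 16.1 CPM (others 6.93 to 10.8), the putamen of animal 6 had 1.12 (0.122 to 0.589), CA1 of animal 7 had 5.18 (3.05 to 4.05) and CA3 of animal 8 had 9.18 (1.91 to 5.31).

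For *ADRA2C* animal 4 was the high library 4 times. Its cerebellum had 17 CPM (others 4.59 to 10.4), its substantia nigra 6.93 (0.957 to 3.64), its accumbens 43.6 (14.1 to 21) and its cerebellar cortex 24.1 (4.08 to 11.9). In that substantia nigra library 5 cortical excitatory neuron markers summed to 110 CPM against a group median of 9.21. Their part in its *ADRA2C* level was not tested. The cerebellum value is the sum over the cerebellar cortex and vermis, so the cerebellar values of animal 4 are not separate samples. The hypothalamus of animal 3 had 7.09 CPM of *ADRA2C* (2.20 to 4.44), and the pituitary of animal 2 had 1.63 (0.200 to 0.512).

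For *ADRB1* the hypothalamus of animal 6 had 5.00 CPM (others 0.630 to 1.53), the olfactory bulb of animal 11 had 1.66 (0 to 0.618), the medulla of animal 8 had 1.94 (0.109 to 0.797), the accumbens of animal 4 had 5.05 (1.41 to 2.53) and CA3 of animal 6 had 2.94 (0.309 to 1.07).

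For *ADRA2B* the high libraries were the cortex of animal 11 at 1.16 CPM (others 0.133 to 0.535), the ventral tegmental area of animal 7 at 2.46 (0 to 0.918), and the cerebellar vermis of animal 11 at 1.00 (0 to 0.273). Animal 4 had 0.351 in the pons, 0.431 in the caudate, 0.414 in the dentate gyrus and 0.439 in the cerebellar cortex, where the other animals reached at most 0.0792, 0.184, 0.157 and 0.158. Animal 6 had 0.332 in the pituitary and 0.280 in the putamen (others at most 0.135 and 0.0974), and animal 7 had 0.0934 in the globus pallidus, where the others were at 0.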

How the results depend on the processing

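The animals pair the samples. With no replicate block the calls among 25 receptor and lobe pairs went from 8 to 3 and the receptors meeting the hippocampal fold criterion from 1 to 2, and *ADRB1* in DG against CA1 lost its call. The 5 receptors still varied over the region groups, 36 group pairs were called in place of 35, and 3 receptors varied among cortical sub-regions in place of 4. The cause of these changes was not tested. With a fold above 4, 15 of the group pairs were called (8 higher, 7 lower) and 0 receptors in the hippocampus. With no filter or the study's detection rule, 1 receptor (*ADRA2B*) met the striatal criterion in place of 0, since it was then tested. Leaving out 1 animal gave 32 to 38 called group pairs, 7 to 8 lobe pairs, 3 to 5 cortical calls, 1 to 3 hippocampal calls (2 without animal 2, 3 or 4, and 3 without animal 8), 0 striatal and cerebellar calls, 5 receptors over the region groups, 0 calls for age and 0 to 1 for sex (*ADRA1A* in the pituitary without animal 7). Of the 35 called group pairs, 30 were kept under every alternative other than the fold above 4. The others were *ADRA1A* in the striatum (log2FC −1.12 to −0.96), *ADRA2A* in the medulla (0.95 to 1.18), and *ADRA2B* in the medulla (0.55 to 2.87), ventral tegmental area (0.24 to 1.65) and hippocampus (−1.77 to −1.26). No log2FC among the named results changed sign under an alternative run. Depth limits *ADRA2B*, *ADRB3* and *ADRB1* outside cortex, striatum and PA most, and age and sex rest on 4 animals a side.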
